A study of Mus musculus with 24 samples.

Results

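The genes examined here encode the nuclear-encoded proteins of oxidative phosphorylation (OXPHOS) complexes II to V in splenic CD4+ Tconv cells. They were taken by name: protein-coding genes whose symbol begins with Sdha to Sdhd, Sdhaf, Uqcr, Uqcc, Cox followed by a digit or Atp5, together with Cyc1 and Cycs. The naming rule uses no measured value, though it was chosen with earlier results of these data known. Of 55414 genes in the count table, 71 were members, 68 of these had at least 1 count, and 63 were among the 10566 genes that passed the filter on low counts and were tested. By complex, 8 members belonged to complex II, 15 to complex III, 28 to complex IV and 19 to complex V, and 1 was the soluble carrier cytochrome c.

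The 4 groups joined 2 mtDNA haplotypes with 2 states, and each held 6 libraries. Mice of genotype WT (mtDNA B6) and NZB (mtDNA NZB) are conplastic, so that both carry the C57BL/6J nuclear genome and differ in the origin of their mtDNA. All members are nuclear genes and so belong to the genome that both strains share. Cells labelled TE were CD4+ CD25- splenocytes obtained by magnetic sorting, either kept at rest (RES) or activated (ACT) for 72 h with IL-2 and beads that engage CD3 and CD28. The methods give males of 2 to 3 months for most experiments and do not state the age for these libraries alone. Polyadenylated RNA was read at its 3′ end with unique molecular identifiers (UMIs), and the deposited counts are numbers of distinct UMIs per gene that the authors corrected for saturation. Levels are given as CPM, UMI counts scaled to a library total of 1000000, after TMM scaling, a composition factor between libraries, and were not divided by transcript length because a molecule is tagged at its end whatever its length.

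Complexes II, III and IV pass electrons from succinate and ubiquinol through cytochrome c to oxygen, and complex V, the ATP synthase, uses the proton gradient that complexes III and IV help to build. Complex II is encoded by the nucleus alone, whereas complexes III, IV and V also contain subunits made from mtDNA and need dedicated assembly factors to join the parts. Resting T cells keep a small mitochondrial compartment, and activated T cells are known to enlarge it as they grow and divide.

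Libraries held 641467 to 6449395 UMI counts, except resting mtDNA NZB replicate 2, which held 51409. In that library a single count was worth 16.9 CPM and 54 of the 71 members were seen, so its values for low genes are coarse. The study's own mean counts leave out this library together with resting replicate 6 and activated replicate 6 of mtDNA NZB, for no stated reason, so results that rest on them are also given for the other 21 libraries. The libraries also fell into 3 sets of 8 by the ratio of a second, larger count table to the UMI counts. Activated mtDNA B6 libraries belonged to set 1 in 5 cases and to set 2 in 1, and resting mtDNA B6 libraries to set 2 in 4 cases and to set 3 in 2.

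The sorted cells carried RNA of T cells and of other cells. All 10 listed T cell identity genes were tested, and their summed level was 6288 to 8995 CPM (median 8499) in resting and 7042 to 7876 CPM (median 7340.1) in activated mtDNA B6 libraries. For mtDNA NZB the same sum was 5346 to 9538 CPM (median 8754) at rest and 6911 to 9476 CPM (median 8401) after activation. Of 8 myeloid markers, 6 were tested and all 6 fell on activation in both haplotypes, from 825 to 2671 CPM (median 1481) to 22.6 to 81.1 CPM (median 27) in mtDNA B6 and from 463 to 2874 CPM (median 855) to 10.8 to 112 CPM (median 48.9) in mtDNA NZB. All 9 markers of granulocytes and their precursors fell as well, from 711 to 8432 CPM (median 3259.8) to 8.57 to 84.2 CPM (median 25.7) in mtDNA B6 and from 442 to 22641 CPM (median 890.0) to 8.05 to 199.9 CPM (median 66.9) in mtDNA NZB. Erythroid markers fell in 8 of 9 cases in each haplotype, and 1 of 8 B cell markers fell in each. The summed B cell markers stood at 9726 to 16263 CPM (median 13082) and 7545 to 19224 CPM (median 16292) in resting and at 3855 to 8450.3 CPM (median 5564) and 1481 to 9081 CPM (median 4632) in activated mtDNA B6 and mtDNA NZB libraries. Both CD8 markers rose in both haplotypes. Of 10 T cell activation genes, 6 rose and 2 fell in mtDNA B6 and 5 rose and 1 fell in mtDNA NZB, and of 3 tested platelet genes 2 rose in each. Of 3 tested NK cell genes, 2 rose and 1 fell in mtDNA B6 and 1 rose and 1 fell in mtDNA NZB, and of 4 Treg genes 1 rose and 1 fell in mtDNA B6 and 2 rose in mtDNA NZB. These shifts accompany every resting-to-activated difference below, and their part in it was not tested. In bulk RNA, fewer cells of a type and less RNA per cell cannot be told apart.

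Promoter sequence is shown for 6 members that are described below, so that the letters shared by members of different complexes can be seen. RefSeq windows of 250 bases before to 50 bases after the start (build GRCm38.p6) were found for 46 of the 63 tested members. The core recognised by nuclear respiratory factor NRF1, searched as GCGCATGC on both strands, stood in 8 of these 46 (17.4%) and in 689 of 17492 protein-coding genes (3.94%). Unlike the members, these coding genes were not limited to those that passed the filter on low counts, so the sets also differ in expression. The ETS core CCGGAAG stood in 18 of 46 (39.1%) against 12.9% of all coding genes, and the YY1 core ATGGCGGC in 3 of 46 (6.52%) against 3.5%. The E-box CACGTG was found in 5 members (10.9%) against 8.91%, and the element of oestrogen-related receptors TCAAGGTCA in 2 members (4.35%) against 0.377%. None of these 5 motifs contains another of them. Each match describes letters in a window and is not evidence of binding, and a gene with overlapping NRF1 matches on both strands was counted once. The stretches below run 5′ to 3′ along the gene, with the match in capitals.
Sdhb, chr4:140961206-140961235, forward strand: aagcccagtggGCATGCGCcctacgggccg
Uqcr11, chr10:80406807-80406836, reverse strand: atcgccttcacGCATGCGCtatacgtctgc
Cycs, chr6:50566611-50566640, reverse strand: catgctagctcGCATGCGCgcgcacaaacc
Cox6a1, chr5:115349102-115349131, reverse strand: acaggaacgggGCGCATGCgcgctctcgct
Sdhd, chr9:50603800-50603829, reverse strand: tttccgggttgtagagTGACCTTGAgccct
Atp5mc3, chr2:73911359-73911388, reverse strand: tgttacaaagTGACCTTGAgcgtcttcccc
The first 4 hold the NRF1 core or its reverse complement and the last 2 the reverse complement of the oestrogen-related receptor element.

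The first question was how these genes responded to activation in each haplotype. In mtDNA B6 cells, 34 of the 63 tested members rose and 5 fell, and 24 did not pass the test (the quasi-likelihood test of edgeR, with p adjusted by Benjamini-Hochberg across 10566 genes and called at 0.05 or less). A p above that threshold does not show that a level was equal in both states. Among all genes tested, 22.4% rose and 24.5% fell. In mtDNA NZB cells, 42 members rose, 4 fell and 17 did not pass, against 25.2% higher and 28.4% lower among all genes. The median log2 fold change of the members was 0.39 in mtDNA B6, where the median over all genes was -0.03, and 0.73 in mtDNA NZB, where it was -0.06. Scaled by total counts instead of TMM, which moved the median of all genes to 0.099 and 0.062, the members higher and lower were 40 and 4 in mtDNA B6 and 45 and 3 in mtDNA NZB, beside 28.5% higher and 19% lower, and 29.7% higher and 23.3% lower, of all genes. With 21 libraries the counts were 37 higher and 7 lower in mtDNA B6 and 42 higher and 4 lower in mtDNA NZB. Of all genes with 21 libraries, 23.8% were higher and 26.6% lower in mtDNA B6, and 24.5% and 28.7% in mtDNA NZB.

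The rises were mostly below a doubling. A log2 fold change of at least 1 was reached by 3 members in mtDNA B6 (7.06% of all genes) and by 11 in mtDNA NZB (9.46% of all genes). For mtDNA B6 these were Sdhb, Cox7a1 and Cox5b-ps, a copy of Cox5b that the annotation lists as protein-coding. For mtDNA NZB they were Sdhb, Uqcc2, Uqcc6, Uqcr10, Uqcr11, Cox5a, Cox7a1, Atp5mc3, Atp5me, Atp5pb and Atp5pf. In 30 members every activated mtDNA B6 library lay above every resting one, and in 4 every activated library lay below, against 15.4% and 16.4% of all genes. In mtDNA NZB 27 members were higher without overlap and 1 was lower, against 11.9% and 6.95% of all genes. Without the shallow resting library these became 28 and 2, against 14.1% and 13.9%.

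Structural subunits and assembly factors, the proteins that help to build a complex without remaining in it, are counted apart. Of 43 tested subunits, 30 rose and 2 fell in mtDNA B6 and 35 rose and 2 fell in mtDNA NZB, with median log2 fold changes of 0.51 and 0.80. Of 17 tested assembly factors, 4 rose and 2 fell in mtDNA B6 and 6 rose and 1 fell in mtDNA NZB, with medians of -0.14 and 0.22. Among all genes tested, 22.4% rose and 24.5% fell in mtDNA B6, and 25.2% rose and 28.4% fell in mtDNA NZB. The difference between subunits and assembly factors was not tested.

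Added over its members, each complex was higher in activated than in resting cells without overlap of libraries in either haplotype. The 8 genes of complex II summed to 669.5 to 805 CPM (median 721) at rest and 973 to 1137 CPM (median 1071) after activation in mtDNA B6, and to 599 to 716 CPM (median 644) and 979.9 to 1293 CPM (median 1142) in mtDNA NZB. The 15 genes of complex III summed to 2420.0 to 2860.5 CPM (median 2837) and 3291 to 3531 CPM (median 3343) in mtDNA B6, and to 1931 to 2734 CPM (median 2476) and 3045 to 4388 CPM (median 3539) in mtDNA NZB. Complex IV gave 4787 to 5349 CPM (median 5024) and 6496 to 7032 CPM (median 6619) in mtDNA B6, and 3218 to 4908 CPM (median 4564) and 5914 to 8583 CPM (median 6843) in mtDNA NZB. These sums are led by the most abundant members and describe the libraries without a test. Complex V, the largest of these sums, went from 6047 to 6804 CPM (median 6511) to 8979 to 9893 CPM (median 9576) in mtDNA B6 and from 4387 to 6300.3 CPM (median 5647) to 8965 to 11886 CPM (median 9855) in mtDNA NZB.

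**Figure D1:**
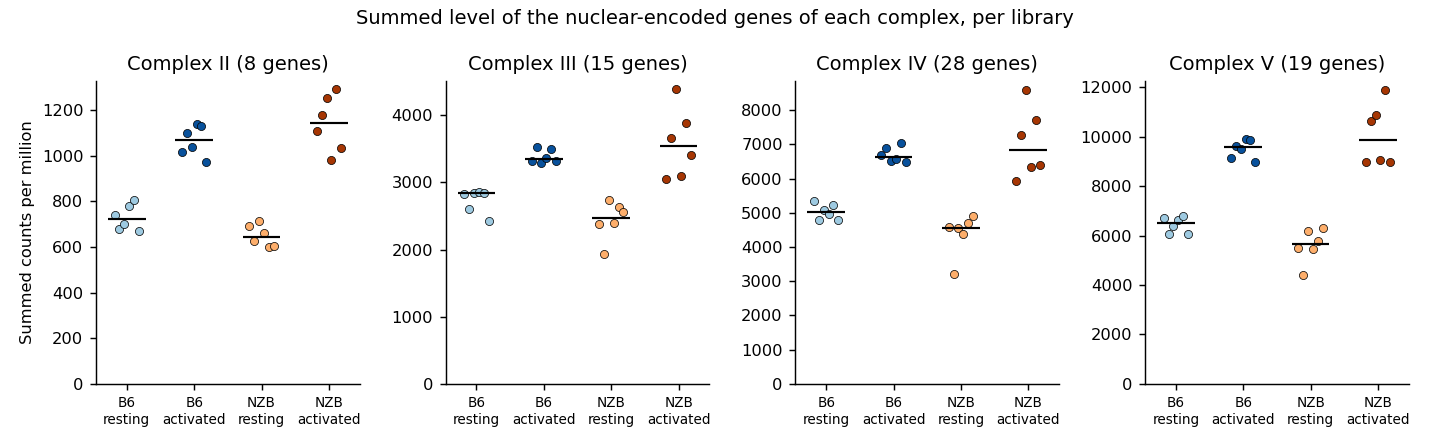
Summed CPM (y axis) of the members of complexes II, III, IV and V in each library (points, 6 per group), with the group median as a line. In each complex every activated library lies above every resting library of the same haplotype, and the lowest resting mtDNA NZB point in complexes III, IV and V is the shallow library.

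**Figure D2:**
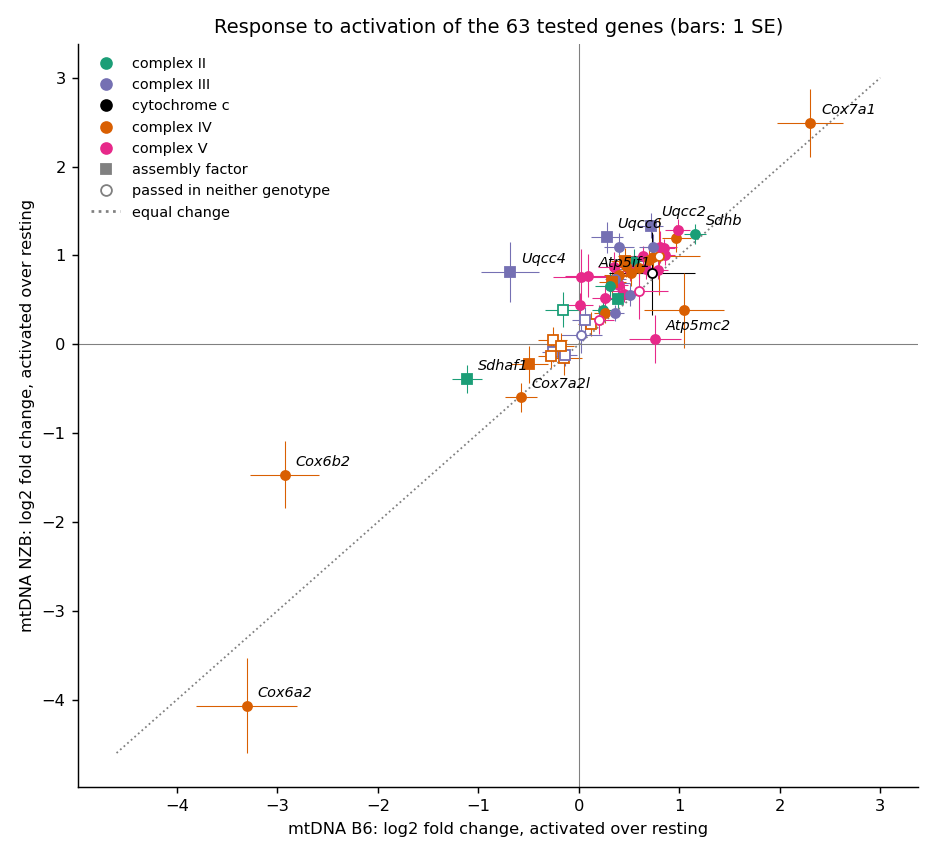
Log2 fold change on activation in mtDNA B6 (x axis) and mtDNA NZB (y axis) for the 63 tested members, coloured by complex, with 1 standard error. Squares are assembly factors, open symbols passed in neither haplotype, and 57 of the 63 members lie above the dotted line of equal change.

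In complex II, 3 of 7 tested members rose and 1 fell in mtDNA B6, and 5 rose and 1 fell in mtDNA NZB. Over all genes tested, 22.4% rose and 24.5% fell in mtDNA B6, and 25.2% rose and 28.4% fell in mtDNA NZB. Sdhb, the iron-sulphur subunit that passes electrons from the flavoprotein to the membrane anchor (chr4:140688502-140709380 of GRCm39, build of the counts), had 178 to 247 CPM (median 202) in resting and 405 to 499 CPM (median 457) in activated mtDNA B6 libraries. For mtDNA NZB it had 192 to 305 CPM (median 208) at rest and 393 to 604 CPM (median 509.6) after activation. The groups did not overlap in either haplotype, and the log2 fold changes were 1.16 (SE 0.11, adjusted p = 9.40e-09) in mtDNA B6 and 1.24 (SE 0.12, adjusted p = 4.99e-09) in mtDNA NZB. Sdhd, one of the membrane anchors, rose by 0.55 (SE 0.13, adjusted p = 0.0013) and 0.94 (SE 0.14, adjusted p = 2.94e-06), from 111 to 189.7 CPM (median 160.1) to 196 to 239 CPM (median 224) in mtDNA B6 and from 50.8 to 158 CPM (median 123) to 207 to 301 CPM (median 236) in mtDNA NZB, again without overlap. The flavoprotein Sdha and the anchor Sdhc rose in mtDNA NZB alone by the test, with 0.38 (SE 0.12, adjusted p = 0.00681) and 0.66 (SE 0.16, adjusted p = 0.00108), whereas in mtDNA B6 their values were 0.24 (SE 0.11, adjusted p = 0.0766) and 0.31 (SE 0.15, adjusted p = 0.0839). The difference of the responses did not pass for either (adjusted p = 0.732 and 0.461).

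Sdhaf1, which guides iron-sulphur clusters into Sdhb, moved the other way from its client. Resting mtDNA B6 libraries had 58.9 to 95.8 CPM (median 73.9) and activated ones 32.5 to 39.4 CPM (median 32.9), with no overlap. Resting and activated mtDNA NZB libraries had 34.5 to 67.2 CPM (median 54.3) and 30.8 to 51.2 CPM (median 40.5), which overlapped. Its log2 fold change was -1.11 (SE 0.15, adjusted p = 1.24e-06) in mtDNA B6 and -0.39 (SE 0.16, adjusted p = 0.0398) in mtDNA NZB. The mtDNA NZB value lost its call under several alternatives, for example with counts scaled by the library total, -0.28 (SE 0.16, adjusted p = 0.138). Sdhaf2, needed to attach flavin to Sdha, rose by 0.39 and 0.51 (adjusted p = 0.0115 and 0.00167), Sdhaf4 had -0.16 and 0.39 and did not pass, and Sdhaf3 had 36 counts in all and was not tested.

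In complex III, 8 of 14 tested members rose in mtDNA B6 and 10 in mtDNA NZB, and the others did not pass. Over all genes tested, 22.4% rose and 24.5% fell in mtDNA B6, and 25.2% rose and 28.4% fell in mtDNA NZB. Uqcr10, a small subunit of the complex, had 246 to 331 CPM (median 309.9) and 460.3 to 531 CPM (median 493) in resting and activated mtDNA B6 libraries. Its levels in mtDNA NZB were 102 to 296 CPM (median 235) and 371 to 622 CPM (median 509). Activated libraries lay above resting ones in both haplotypes, with log2 fold changes of 0.74 (SE 0.14, adjusted p = 1.01e-04) and 1.10 (SE 0.14, adjusted p = 5.67e-07). Uqcr11, another small subunit, described after its values were seen, had 134 to 216 CPM (median 162) and 188 to 245 CPM (median 227) in mtDNA B6 and 72.4 to 186 CPM (median 122) and 189 to 292 CPM (median 245) in mtDNA NZB. It rose by 0.40 (SE 0.15, adjusted p = 0.0302) in mtDNA B6, where the groups overlapped, and by 1.09 (SE 0.16, adjusted p = 3.62e-06) in mtDNA NZB, where they did not. The mtDNA B6 call was lost with the library set as a term, 0.38 (SE 0.20, adjusted p = 0.145), with the second table, with thinning and on leaving out activated replicate 4 or 5 or resting replicate 2 or 6. The catalytic members were closer to the middle: cytochrome c1 (Cyc1) rose by 0.51 and 0.85, and the Rieske protein Uqcrfs1 by 0.36 and 0.35, with adjusted p from 5.12e-07 to 0.00112. The hinge protein Uqcrh, at 691 to 938 CPM (median 864) and 808 to 933 CPM (median 835) in mtDNA B6, was the tested subunit of complex III with the smallest mean change, 0.03 (SE 0.20, adjusted p = 0.934) and 0.11 (SE 0.21, adjusted p = 0.684). Uqcrb had 83 counts in all and was not tested; 89.1% of its last bases have a near-identical copy elsewhere in the genome.

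Among the 6 factors of complex III, all of them tested, Uqcc2 had the largest mean response. Uqcc2, which with Uqcc1 supports the making of cytochrome b from mtDNA, had 73.5 to 118 CPM (median 100.01) and 145 to 173 CPM (median 154) in resting and activated mtDNA B6 libraries and 54.1 to 84.7 CPM (median 76.4) and 131 to 218 CPM (median 188) in mtDNA NZB. No library of one state reached the other in either haplotype, and the log2 fold changes were 0.71 (SE 0.13, adjusted p = 6.01e-05) and 1.34 (SE 0.14, adjusted p = 1.67e-08). Its partner Uqcc1 went the other way in sign and passed in neither, -0.25 (SE 0.11, adjusted p = 0.0631) and -0.09 (SE 0.12, adjusted p = 0.568), at 29.4 to 39.9 CPM (median 33.6) and 23.1 to 34.3 CPM (median 29.6) in mtDNA B6 and 16.9 to 35.6 CPM (median 29.5) and 25.7 to 31 CPM (median 29.6) in mtDNA NZB. The last bases of Uqcc2 also lie over the coding gene Itpr3, and the strand of the counting is not given in the sources used here.

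Cytochrome c itself (Cycs, chr6:50539541-50543557) was low and variable. It had 5.3 to 17.2 CPM (median 11.9) and 10.1 to 29.5 CPM (median 18.5) in resting and activated mtDNA B6 libraries and 0 to 17.7 CPM (median 9.02) and 0 to 32.2 CPM (median 20.3) in mtDNA NZB, with wide overlap. The log2 fold changes of 0.73 (SE 0.43, adjusted p = 0.169) and 0.80 (SE 0.47, adjusted p = 0.151) were of the size of other members but did not pass. The standard deviation of its log2 CPM within groups, 1.25 over 23 libraries without the shallow one, was the largest of the 63 members, whose median was 0.206, and Cox7a2 followed with 0.86. By description, the genes outside the membership whose log2 CPM followed Cycs most closely across the 24 libraries were Ribc1, Tnfsf10 and Hnrnpa3 (Pearson r of 0.87, 0.864 and 0.861), a likeness that includes differences in depth and state.

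Complex IV held the largest rise and the largest fall of the 63 members, those of Cox7a1 and Cox6a2. Of 23 tested members, 12 rose and 4 fell in mtDNA B6, and 12 rose and 3 fell in mtDNA NZB. Over all genes tested, 22.4% rose and 24.5% fell in mtDNA B6, and 25.2% rose and 28.4% fell in mtDNA NZB. Cox5a, a core nuclear subunit on the matrix side, had 238 to 350.3 CPM (median 299.8) and 525 to 689 CPM (median 555) in mtDNA B6 and 84.7 to 336 CPM (median 264) and 484 to 681 CPM (median 625) in mtDNA NZB. Activated and resting libraries did not overlap, and the log2 fold changes were 0.97 (SE 0.15, adjusted p = 6.44e-06) and 1.19 (SE 0.15, adjusted p = 3.79e-07). Cox4i1, the ubiquitous form of the subunit that binds ATP, changed less: 0.26 (SE 0.11, adjusted p = 0.0503) in mtDNA B6, just outside the threshold, and 0.35 (SE 0.11, adjusted p = 0.00928) in mtDNA NZB, at 709 to 832 CPM (median 751) and 842 to 1023 CPM (median 878) and at 716 to 847 CPM (median 749.9) and 752 to 1356 CPM (median 933). Its libraries did not overlap between states in mtDNA B6 and did in mtDNA NZB. The alternative form Cox4i2 had 23 counts in all and was not tested. Cox5b, Cox6c and Cox7c rose in both haplotypes, by 0.70, 0.74 and 0.40 in mtDNA B6 and by 0.95, 0.98 and 0.78 in mtDNA NZB.

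Several complex IV subunits exist as a ubiquitous form and a form known from muscle, heart or testis and are described pair by pair. For Cox6a, the ubiquitous Cox6a1 had 597 to 697 CPM (median 673) and 813 to 1101 CPM (median 897) in mtDNA B6 and 356 to 656 CPM (median 580.0) and 832 to 1230.2 CPM (median 1071) in mtDNA NZB. It rose by 0.47 (SE 0.12, adjusted p = 0.00181) and 0.88 (SE 0.12, adjusted p = 9.52e-07), without overlap in either. The heart and muscle form Cox6a2 was far lower, at 2.74 to 6.02 CPM (median 4.65) and 0 to 0.764 CPM (median 0.434) in mtDNA B6 and 0 to 11.3 CPM (median 6.83) and 0 to 0.871 CPM (median 0.383) in mtDNA NZB. It fell, with log2 fold changes of -3.31 (SE 0.50, adjusted p = 7.17e-06) and -4.07 (SE 0.53, adjusted p = 6.68e-07), on 91 and 102 resting counts and 9 and 7 activated counts. Libraries did not overlap in mtDNA B6, and in mtDNA NZB they overlapped only through the shallow library, which had no count. The last bases of Cox6a2 lie over the coding gene Itgad, and the part of that gene's RNA and of the falling myeloid markers in this value was not tested.

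Cox6b showed the same arrangement. The ubiquitous Cox6b1 had 373 to 487 CPM (median 442) and 596 to 708 CPM (median 662) in mtDNA B6 and 298 to 394 CPM (median 362) and 459 to 832 CPM (median 639) in mtDNA NZB, and rose without overlap by 0.60 (SE 0.11, adjusted p = 1.09e-04) and 0.86 (SE 0.12, adjusted p = 1.03e-06). Cox6b2, the form known from testis, had 11.9 to 31 CPM (median 16.3) at rest and 1.53 to 3.6 CPM (median 2.47) after activation in mtDNA B6, and 4.58 to 22.5 CPM (median 6.46) and 1.96 to 4.34 CPM (median 3.14) in mtDNA NZB. Of the resting mtDNA NZB libraries, replicate 6 was highest and the shallow library, with 1 count, came next. Cox6b2 fell in both without overlap, with log2 fold changes of -2.93 (SE 0.35, adjusted p = 2.21e-07) and -1.47 (SE 0.38, adjusted p = 0.00186). With 21 libraries the mtDNA NZB value was -0.81 (SE 0.34, adjusted p = 0.0469), and it did not pass when the library set was also a term, -0.77 (SE 0.33, adjusted p = 0.0578).

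For Cox7a, the muscle and heart form rose. Cox7a1 (chr7:29883569-29885503), which has been linked to pairing of complex IV, had 1.24 to 1.88 CPM (median 1.45) at rest and 5.6 to 8.9 CPM (median 7.5) after activation in mtDNA B6, without overlap. In mtDNA NZB it had 0 to 1.4 CPM (median 0.962) and 0 to 9.38 CPM (median 5.5), which overlapped because 1 activated library, replicate 1, had no count. The log2 fold changes of 2.30 (SE 0.33, adjusted p = 3.06e-06) and 2.49 (SE 0.39, adjusted p = 7.38e-06) were the largest rises of the 63 members, on 30 and 15 resting and 159 and 130 activated counts. The ubiquitous Cox7a2 had 37.6 to 169 CPM (median 89.9) and 80 to 285 CPM (median 149.8) in mtDNA B6 and 23.2 to 167 CPM (median 65.5) and 75.6 to 249.6 CPM (median 132) in mtDNA NZB. Its groups overlapped, and the values of 0.80 (SE 0.41, adjusted p = 0.11) and 0.99 (SE 0.43, adjusted p = 0.0566) did not pass. With 21 libraries the mtDNA NZB value was 1.61 (SE 0.45, adjusted p = 0.00479) and passed, while the mtDNA B6 value was 0.80 (SE 0.37, adjusted p = 0.0737). With the library set as a term both passed, 1.46 (adjusted p = 0.0476) in mtDNA B6 and 1.15 (adjusted p = 0.0341) in mtDNA NZB. The mtDNA B6 value also passed without resting mtDNA B6 replicate 1, and the mtDNA NZB value under several other alternatives. The difference of the 2 responses was 0.19 (SE 0.59, adjusted p = 0.936) with 24 libraries and 0.81 (SE 0.58, adjusted p = 0.465) with 21.

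Cox7a2l, related in sequence and known as a factor that joins complexes III and IV into supercomplexes, fell in both haplotypes. It had 363 to 463 CPM (median 415) and 232 to 332 CPM (median 275) in mtDNA B6, without overlap, and 305 to 689 CPM (median 450.1) and 250.2 to 508 CPM (median 269) in mtDNA NZB, where activated replicate 3 lay among the resting libraries and activated replicate 6 above the shallow one. The log2 fold changes were -0.58 (SE 0.16, adjusted p = 0.00489) and -0.59 (SE 0.16, adjusted p = 0.00357). C57BL/6 mice, the source of the nuclear genome in both strains, are known to carry a shortened form of this protein. A near-identical copy elsewhere covers 93.9% of its last bases, and the coding gene Eml4 overlaps them, so its counts are uncertain. Cox7b rose by 0.52 (SE 0.13, adjusted p = 0.00236) and 0.80 (SE 0.14, adjusted p = 3.12e-05), from 202 to 242 CPM (median 211) to 263 to 331 CPM (median 315) without overlap in mtDNA B6 and from 156 to 180.3 CPM (median 167) to 147 to 379 CPM (median 303) with overlap in mtDNA NZB. Cox8a rose by 0.39 (SE 0.11, adjusted p = 0.00354) and 0.77 (SE 0.11, adjusted p = 1.79e-06), from 421 to 528 CPM (median 467) to 561 to 696 CPM (median 621) and from 271 to 439.9 CPM (median 398) to 538 to 763 CPM (median 698), without overlap in either. Their tissue-restricted relatives Cox7b2, Cox8b and Cox8c had 0 counts in all 24 libraries, which allows a level of up to 0.0394 CPM by counting error alone (3 counts of 76200568 in all).

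Where 22.4% of all genes rose in mtDNA B6 and 25.2% in mtDNA NZB, 2 of 8 tested assembly factors of complex IV rose in each haplotype. These were the copper carrier Cox17, with 0.46 (SE 0.14, adjusted p = 0.0094) and 0.93 (SE 0.15, adjusted p = 1.01e-05), and Cox19, with 0.33 (SE 0.14, adjusted p = 0.0465) and 0.70 (SE 0.15, adjusted p = 3.10e-04). Cox14 fell in mtDNA B6, -0.49 (SE 0.19, adjusted p = 0.0335), and had -0.23 (SE 0.21, adjusted p = 0.37) in mtDNA NZB. Cox10, an enzyme of haem a synthesis, had -0.26 and 0.05 and passed in neither, as was so for Cox11, Cox16, Cox18 and Cox20, and its partner in that synthesis, Cox15, had 9 counts in all.

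**Figure D3:**
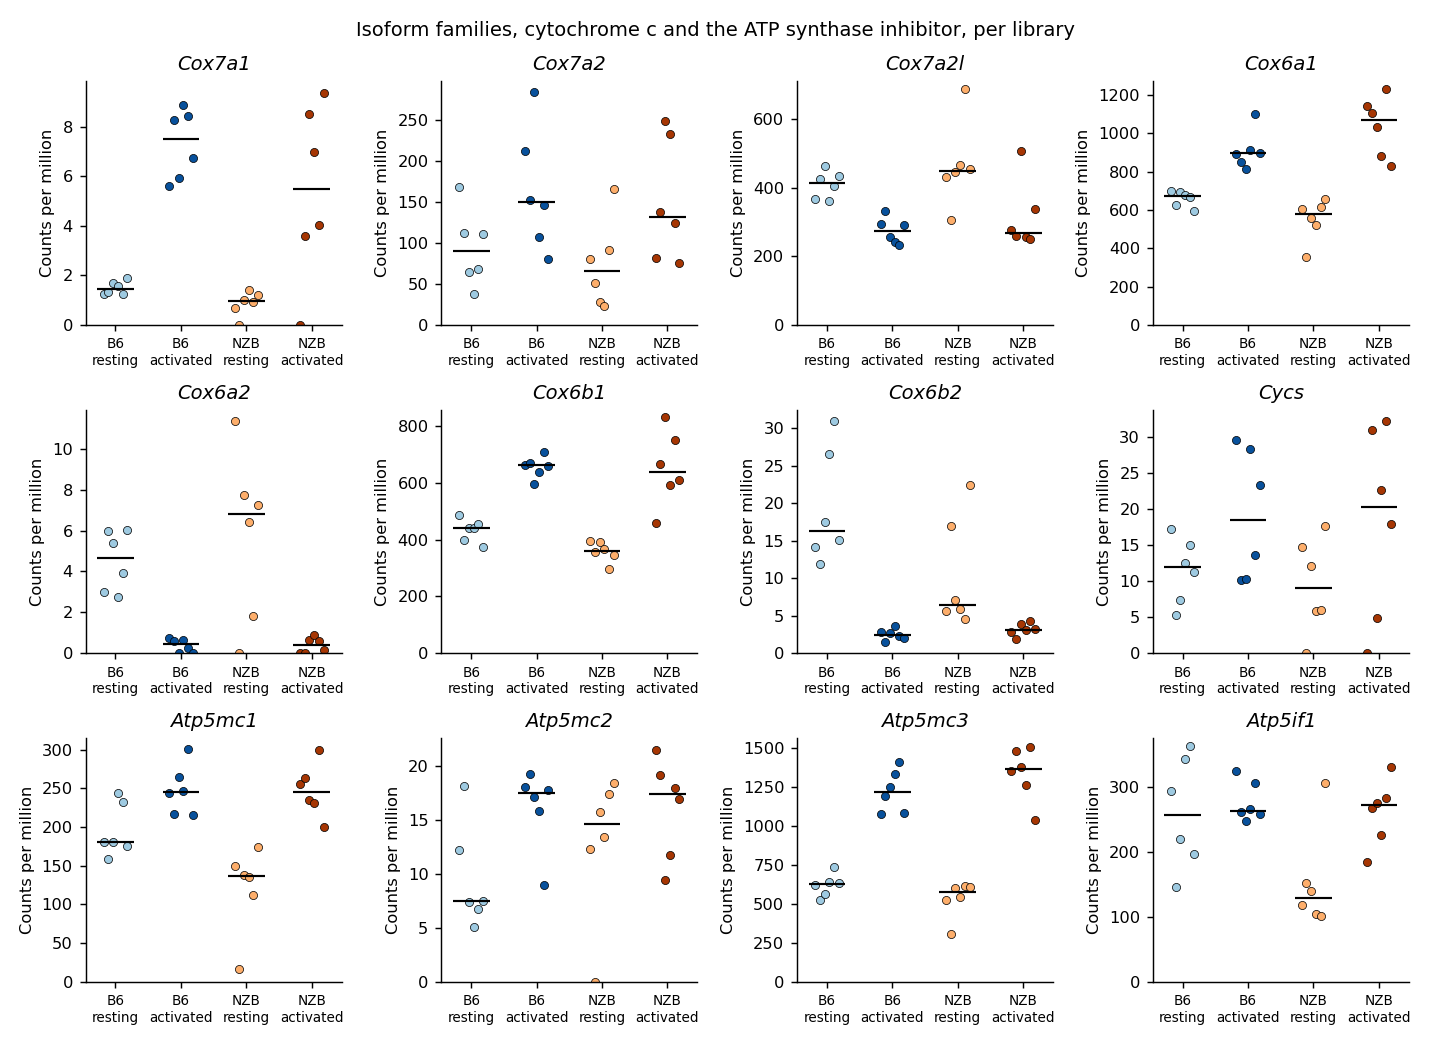
CPM (y axis, starting at 0) in each of 6 libraries per group for complex IV isoforms, cytochrome c, the c-subunit genes and the ATP synthase inhibitor, with the group median as a line. Cox7a1 rises from at most 1.88 CPM while Cox6a2 and Cox6b2 fall, and Cox7a2 and Cycs overlap widely between states.

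In complex V, 11 of 18 tested members rose in mtDNA B6 and 15 in mtDNA NZB, and the others did not pass, all 18 values being positive in both. Over all genes tested, 22.4% rose and 24.5% fell in mtDNA B6, and 25.2% rose and 28.4% fell in mtDNA NZB. Positive values were held by 5104 and 4976 of the 10566 genes. A second gene annotated as Atp5po had 1 count in all and was not tested. The catalytic subunits Atp5f1a and Atp5f1b rose by 0.79 and 0.67 in mtDNA B6 and by 0.84 and 0.85 in mtDNA NZB, with adjusted p of at most 1.84e-05. Atp5pf of the peripheral stalk had 182 to 221 CPM (median 204) and 331 to 391 CPM (median 362) in mtDNA B6 and 152 to 198 CPM (median 163) and 243 to 416 CPM (median 384) in mtDNA NZB, and rose without overlap by 0.85 (SE 0.11, adjusted p = 4.96e-07) and 1.08 (SE 0.11, adjusted p = 1.75e-08). Atp5f1e, the small epsilon subunit of the catalytic head, had the smallest mean change of the complex. It had 741 to 903 CPM (median 849) and 740.1 to 927 CPM (median 862) in mtDNA B6, 0.01 (SE 0.13, adjusted p = 0.963), and 440.4 to 926 CPM (median 665) and 706 to 1253 CPM (median 908) in mtDNA NZB, 0.45 (SE 0.13, adjusted p = 0.00681). Libraries of both states overlapped in each haplotype.

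The rotating c ring of the synthase is built from 1 mature protein that 3 genes encode with different import sequences. Atp5mc3 (chr2:73738779-73741933) had 523 to 735 CPM (median 626) and 1079 to 1410.3 CPM (median 1222) in mtDNA B6 and 305 to 615 CPM (median 574) and 1037 to 1506 CPM (median 1366) in mtDNA NZB. It rose without overlap by 0.98 (SE 0.13, adjusted p = 6.64e-07) and 1.29 (SE 0.13, adjusted p = 1.13e-08), the largest mean change of complex V. Atp5mc1 had 158 to 244 CPM (median 180.5) and 216 to 301 CPM (median 245) in mtDNA B6, which overlapped, and 16.9 to 174 CPM (median 137) and 201 to 300.0 CPM (median 246) in mtDNA NZB, which did not. Its log2 fold change was 0.35 (SE 0.16, adjusted p = 0.0758) in mtDNA B6 and 0.87 (SE 0.17, adjusted p = 9.56e-05) in mtDNA NZB, and with 21 libraries the former passed, 0.35 (SE 0.11, adjusted p = 0.0134). Atp5mc2, the lowest of the 3 at 5.09 to 18.2 CPM (median 7.47) and 8.96 to 19.3 CPM (median 17.5) in mtDNA B6 and 0 to 18.5 CPM (median 14.6) and 9.49 to 21.6 CPM (median 17.5) in mtDNA NZB, rose in mtDNA B6, 0.76 (SE 0.26, adjusted p = 0.0193), with overlap, and had 0.06 (SE 0.27, adjusted p = 0.869) in mtDNA NZB. The mtDNA B6 value did not pass with the library set as a term, 0.43 (SE 0.35, adjusted p = 0.365). Near-identical copies elsewhere cover 85.8% of the last bases of Atp5mc1 and 89.2% of those of Atp5mc2, and none of those of Atp5mc3.

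Atp5if1, the inhibitor that keeps the synthase from hydrolysing ATP, was described after its values were seen. It had 145 to 362 CPM (median 257) at rest and 248 to 325 CPM (median 263) after activation in mtDNA B6, and 101 to 306 CPM (median 129) and 184 to 331 CPM (median 271) in mtDNA NZB. Resting mtDNA NZB libraries were low apart from replicate 6, the highest value of that group. That library also held the most erythroid and granulocyte RNA of the group, with summed markers of 4049.9 and 22641 CPM against at most 415 and 2574 CPM in the other 5, and the part of these cells in its value was not tested. The log2 fold change was 0.09 (SE 0.23, adjusted p = 0.771) in mtDNA B6 and 0.77 (SE 0.24, adjusted p = 0.0083) in mtDNA NZB, and the difference of responses was 0.68 (SE 0.33, adjusted p = 0.346). With 21 libraries, which leave replicate 6 out, the mtDNA NZB change was 1.10 (SE 0.20, adjusted p = 1.01e-04) and the difference of responses 1.01 (SE 0.26, adjusted p = 0.0537).

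The next question was whether mtDNA NZB and mtDNA B6 cells differed within a state. At rest, 2 of the 63 members differed, both lower in mtDNA NZB and both assembly factors of complex III, against 2.76% of all genes in either direction. Uqcc4 had 4.08 to 9.01 CPM (median 5.32) in mtDNA B6 and 0 to 3.64 CPM (median 1.8) in mtDNA NZB, without overlap, and a log2 difference of -1.29 (SE 0.33, adjusted p = 0.0385) on 114 and 34 counts. Uqcc6 had 27.5 to 41.8 CPM (median 35) and 17 to 33.9 CPM (median 23.2), which overlapped only through the shallow library, and a difference of -0.65 (SE 0.17, adjusted p = 0.043). Near-identical copies cover 97.4% of the last bases of Uqcc6, so its counts are uncertain. On activation Uqcc6 rose in mtDNA NZB, 1.21 (SE 0.17, adjusted p = 2.87e-06), from those values to 35.2 to 86.3 CPM (median 48.5), and had 0.28 (SE 0.16, adjusted p = 0.15) in mtDNA B6, where activated libraries held 38 to 51.4 CPM (median 40.8). Uqcc4 had -0.69 (SE 0.28, adjusted p = 0.0501) in mtDNA B6 and 0.81 (SE 0.34, adjusted p = 0.0452) in mtDNA NZB, to 2.31 to 4.87 CPM (median 3.44) and 2.29 to 5.26 CPM (median 3.94). The mtDNA NZB call was lost by DESeq2, with no filter, with the second table, with the library set as a term, 0.62 (SE 0.35, adjusted p = 0.141), and with 21 libraries, 0.58 (SE 0.36, adjusted p = 0.189).

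With the library set as a term no member passed and 1 of the 10566 genes did, and Uqcc4 and Uqcc6 had -1.25 (SE 0.33, adjusted p = 0.105) and -0.65 (SE 0.18, adjusted p = 0.118). With 21 libraries 5 members passed, beside 3.88% of all genes lower and 2.24% higher. All 5 were lower in mtDNA NZB, namely Atp5mc1, Uqcr11, Cox6b2, Atp5if1 and Uqcc6. For Cox6b2 and Atp5if1 the difference went from -1.09 (SE 0.33, adjusted p = 0.0631) and -0.76 (SE 0.24, adjusted p = 0.0706) with 24 libraries to -1.73 (SE 0.28, adjusted p = 0.00193) and -1.17 (SE 0.20, adjusted p = 0.00277) with 21, and Uqcc4 had -1.08 (SE 0.33, adjusted p = 0.0528). Single libraries moved the count of 2, as they moved the 292 calls over all genes, which ranged from 0 to 587 with 1 library left out. It reached 6 when replicate 6 of resting mtDNA NZB was left out, with 527 calls over all genes, and 6 without replicate 2 of resting mtDNA B6, where 1 of the 6, Atp5mc2, was higher in mtDNA NZB (0.94, adjusted p = 0.0477). It was 4 without replicate 3 of resting mtDNA NZB. It dropped to 0 on leaving out replicate 5 of resting mtDNA NZB, or any of replicates 1, 3, 4, 5 and 6 of resting mtDNA B6. It was 1 without activated mtDNA NZB replicate 2 or any of activated mtDNA B6 replicates 1, 2, 3 and 4, which share the estimate of the spread.

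Most members leaned the same way at rest without passing. In 52 of 63 the resting difference was negative, against 5406 of all 10566 genes. The median was -0.22 where the median over all genes was -0.01, and 22 members had an unadjusted p under 0.05, against 20.8% of all genes. The members were read from the same libraries, so they are not separate observations. Cox7b was lower in every resting mtDNA NZB library than in any resting mtDNA B6 library, and its difference was -0.37 (SE 0.14, adjusted p = 0.129). How many of all genes were separated in this way at rest, as Uqcc4 also was, was not counted. Libraries of the same set gave medians of -0.162 over the members in set 2 (1 mtDNA NZB library against 4) and -0.367 in set 3 (4 against 2), where the medians over all genes were 0.007 and -0.241. All 9 erythroid markers had a negative resting difference (median -1.23), and 1 of them passed. Of 6 tested myeloid markers, 5 were negative and 1 positive, and all 8 B cell markers were positive (median 0.22). Granulocyte markers were positive in 5 and negative in 4 cases, and T cell identity genes in 4 and 6. No myeloid, granulocyte, B cell or T cell identity marker passed. The part of such shifts in the lean of the members was not tested.

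**Figure D4:**
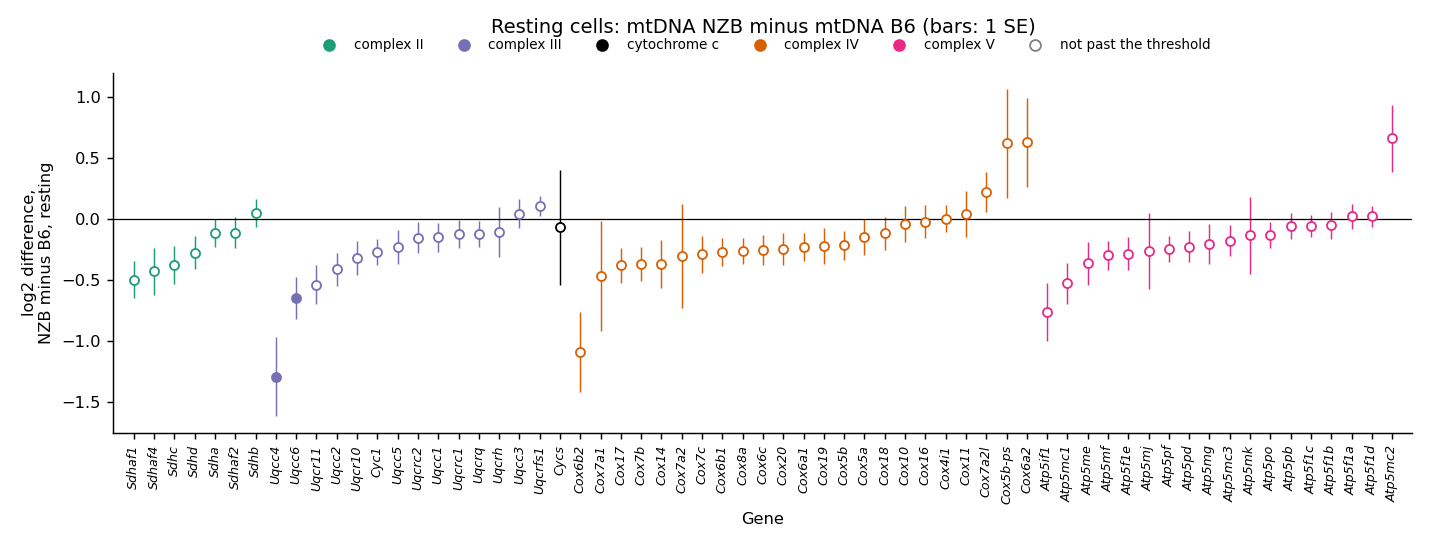
Log2 difference between resting mtDNA NZB and resting mtDNA B6 libraries (y axis) for the 63 tested members, ordered within complexes, with 1 standard error. Filled points are the 2 that passed, Uqcc4 and Uqcc6, and 52 of 63 points lie below 0.

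After activation none of the 63 members differed between haplotypes by edgeR's test, as was so for 0% of all genes. By unadjusted p under 0.05 there were 2 members and 3.09% of all genes, DESeq2 called 0, and the median difference was 0.07. No member differed in its response either, that is, in the mtDNA NZB change minus the mtDNA B6 change, again against 0% of all genes, with 17 members and 14.3% of all genes at an unadjusted p under 0.05 and 0 members called by DESeq2. The difference of responses was positive in 57 of 63 members, against 5516 of all 10566 genes. Its median was 0.26 over the members, where the median over all genes was 0.02. With a replicate block by label number the median of the members was 0.117. That value rests on the 9 pairs of libraries that carry the same number in both states. The comparison shares its resting libraries with the comparison at rest, so both cannot be read as separate evidence. The 3 smallest unadjusted p belonged to Uqcc6, 0.93 (SE 0.23, adjusted p = 0.207), Uqcc4, 1.5 (SE 0.44, adjusted p = 0.207), and Uqcc2, 0.62 (SE 0.19, adjusted p = 0.207). With 21 libraries, where 0.878% of all genes were higher and 0.166% lower, Uqcc6 and Cox6b2 passed, 1.02 (SE 0.23, adjusted p = 0.0447) and 2.11 (SE 0.44, adjusted p = 0.0422), and with 21 libraries and the library set as a term neither did.

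More members passed on activation in mtDNA NZB than in mtDNA B6 while the difference between the responses passed for none of the 63 with all 24 libraries. All genes had the same order, with 53.5% passing in mtDNA NZB and 46.9% in mtDNA B6. Fitted on the 12 libraries of each comparison alone, all genes had the reverse order, 43.7% in mtDNA NZB and 56.9% in mtDNA B6. Within library sets the median change on activation of mtDNA NZB was 0.695, 0.672 and 0.833 in sets 1, 2 and 3, where the medians over all genes were -0.024, -0.044 and 0.191. Sets 1 and 2 each set 2 activated libraries against a single resting one and set 3 set 2 against 4, so these medians have no test. That of mtDNA B6 could be had in set 2 alone, 0.462 with 1 activated library against 4. With the library set as a term the members higher and lower numbered 28 and 6 in mtDNA B6, beside 16.3% and 17.1% of all genes, and 41 and 4 in mtDNA NZB, beside 24.4% and 26.6%.

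Other factors of complexes III to V that the naming rule leaves out gave a background within the pathway. Of 30 listed, 27 were tested, of which 7 rose and 2 fell in mtDNA B6 and 16 rose and 1 fell in mtDNA NZB, with medians of 0.11 and 0.50. Among all genes, 22.4% rose and 24.5% fell in mtDNA B6, and 25.2% rose and 28.4% fell in mtDNA NZB. Cmc2, a factor of complex IV, rose by 1.08 and 1.99, and Ndufa4, now counted as a subunit of complex IV, by 0.70 and 1.24. Ttc19, a factor of complex III, fell, with log2 fold changes of -1.05 and -1.71. At rest, Cmc2 and Coa3 were lower in mtDNA NZB, with log2 differences of -0.70 (adjusted p = 0.0430) and -0.47 (adjusted p = 0.0427), and with the library set as a term neither passed (adjusted p = 0.129 and 0.122). Of the 6 mtDNA-encoded partners in complexes III to V, mt-Cytb alone had counts enough to be tested, and it fell, with log2 fold changes of -1.11 in mtDNA B6 and -2.02 in mtDNA NZB (adjusted p = 0.0355 and 0.000726). The shallow resting library had 1219.5 CPM of mt-Cytb, beside 95.2 to 182 CPM in the other resting mtDNA NZB libraries, and with that library left out the changes were -1.07 and -1.38. The mtDNA B6 value did not pass with the library set as a term (-0.58, adjusted p = 0.423). In this table mt-Co2, mt-Co3, mt-Atp6 and mt-Atp8 had 0 counts in all libraries, so no level of these partners is given.

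Copies of these genes elsewhere in the genome limit several values. Of the 71 members, 13 had at least 50% of the last 1000 bases of their transcript, or of the whole where it is shorter, covered by copies at 95% identity or more, and 44 had none. Besides those named above they were Cox5b-ps, copied over its whole length, Atp5mg (85.8%), Cox6c (82.9%), Atp5me (82.7%), Cox7c (74.1%), Atp5pd (60.1%), Cox8a (59%) and Cox5b (55.6%). A coding gene lay over the same end in 15 members. How reads that fit both places were handled is not given in the sources used here.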

How the data were processed

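RNA of 24 libraries of CD4+ Tconv cells, 6 per group, was read at the 3′ end by MARS-seq, a bulk method with UMIs. According to the methods, the authors trimmed reads with cutadapt, aligned them with STAR to 3′ regions of 1000 bases in GRCm39 (Ensembl 106), and counted genes with HTSeq, and the deposited table holds UMI counts, corrected for saturation and not scaled to library size. A second deposited table holds larger counts per gene, 1.88 to 2.8 times the UMI total, and its making is not described separately; 1 of its columns matched no sample and was not used. Tool versions of that step are not given in the sources used here.

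Groups followed the labels. UMI counts were fitted with edgeR 4.0.16 (R 4.3.3), with TMM scaling, filterByExpr at a minimum count of 10, and 1 fit of 4 groups, and the quasi-likelihood test gave activation in each haplotype, haplotype in each state, and the difference of responses. The p-values were adjusted by Benjamini-Hochberg over 10566 genes, and a standard error was the fold change divided by the root of its F. The labels do not say that each library came from a separate mouse, so p-values measure the spread between libraries, which may be in part technical. Intervals of counts cover counting error only.

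The members and gene lists were chosen with earlier results of these data known. Full values were given for the 2 largest and the smallest mean responses of each complex, members called between haplotypes (or the 3 smallest p of the difference of responses), isoform families, the c-subunit genes and Cycs; Uqcr11 and Atp5if1 were added after their values were seen, and other members are given by their fold changes. Genes absent from the annotation used for names held 0.0272% of UMIs. Copied transcript ends were found with blastn 2.17.0 (at least 75 bases at 95% identity). Alternatives comprised DESeq2 1.42.0, other scalings, filters and terms, the second table, thinning, 21 libraries and leaving out each library in turn (14 settings and 24 omissions). No 2 libraries of a group agreed within sampling noise, the lowest chi-square per degree of freedom being 2.798.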

Additional observations from a re-analysis of the deposited data

Results flagged for a closer look

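Among 31 items checked in 4 groups of 6 libraries each (124 checks by Dixon's test at the 95% level, where chance alone gives about 5%), 10 values, from 4 libraries, stood apart from the others of their group. The shallow resting mtDNA NZB library, replicate 2, accounted for 5 of these. It had 305 CPM of Sdhb, where the others had 192 to 222, 84.7 CPM of Cox5a against 252 to 336, and 305 CPM of Atp5mc3 against 523 to 615. It had 0 CPM of Atp5mc2, where the others had 12.4 to 18.5, and a summed level of complex IV of 3218 CPM against 4373 to 4908. At 16.9 CPM per count, the 0 of Atp5mc2 is the absence of a single count, and the values of Sdhb, Cox5a and Atp5mc3 also rest on few counts. Dixon's test takes no account of counting error.

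Activated mtDNA B6 replicate 5 stood apart for 3 members, with 689 CPM of Cox5a against 525 to 578, 1101 CPM of Cox6a1 against 813 to 914, and 8.96 CPM of Atp5mc2 against 15.9 to 19.3. This library was also the only activated mtDNA B6 library in set 2. Activated mtDNA NZB replicate 3 had 508 CPM of Cox7a2l against 250.2 to 339, and resting mtDNA NZB replicate 6 had 306 CPM of Atp5if1 against 101 to 152. What set these libraries apart was not tested.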

How the results depend on the processing

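The count of members that differed between resting mtDNA NZB and mtDNA B6 cells (2) moved most. It was 6 by DESeq2, 5 with 21 libraries, with or without the library set as a term, 1 with total counts, with a minimum count of 30 or with a replicate block by title number, and 0 with no filter, the second table, 12 libraries, the library set as a term or thinning, and leaving out 1 library gave 0 to 6. Of all genes, 2.76% were called beside these 2, 4.27% by DESeq2, 6.11% with 21 libraries and 3.21% with the library set also a term. The share was 1.76% with total counts, 4.13% with a minimum count of 30 and 0.681% with the block by title number. It was 0.859% with no filter, 0.358% with the second table, 0% with 12 libraries, 0.00946% with the library set and 1.41% with thinning. The members lower on activation in mtDNA NZB (4) became 2 with 12 libraries and 2 with thinning, beside 21.6% and 25.8% of all genes. The difference of responses (0) became 2 with 21 libraries, beside 1.04% of all genes.

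On activation, the alternatives other than leaving out a library gave 26 to 40 members higher and 4 to 7 lower in mtDNA B6 and 36 to 45 higher and 2 to 4 lower in mtDNA NZB. Of all genes, they called 9.96% to 28.5% higher and 12.8% to 29.6% lower in mtDNA B6. For mtDNA NZB these shares were 10.9% to 29.7% higher and 13.7% to 30% lower. Leaving out 1 library gave 31 to 39 and 4 to 6, and 40 to 44 and 3 to 4. Of all genes, 20.2% to 25.1% were then higher and 20.8% to 25.9% lower in mtDNA B6. For mtDNA NZB the shares were 23.6% to 27.1% and 26.2% to 28.5%. Of the 39 and 46 calls, every one that was retested kept its sign under every alternative, except Uqcc4 in mtDNA NZB, which turned to -0.12 with 21 libraries and a replicate block by label number. The fewest calls held in mtDNA B6 were 28 of 36 retested, with thinning, and in mtDNA NZB 37 of 46, with that block. The causes of these shifts were not tested.

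Whether libraries with the same label number came from the same mouse is not given in the labels. According to the methods, isolated cells were split into resting and activated groups. Of 9 same-numbered pairs, 3 had deviations correlated above 0.1 (range -0.158 to 0.253), and 2 of 9 activated libraries correlated best with their own number. Weak correlation between resting and activated cells cannot show that libraries were unpaired, and the fit of 4 groups had no term for pairing. With the replicate block by label number the median log2 fold change in mtDNA NZB was 0.59 in place of 0.731, and that of the difference of responses 0.117 in place of 0.26. The changes with that block rest on the 9 same-numbered pairs alone, so the 2 fits differ in the libraries that inform them. Depth limited low members, since 1 count was worth 16.9 CPM in the shallow library.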
